A study of Canis lupus familiaris with 22 samples.

Results

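Chemerin is a chemoattractant protein encoded by *RARRES2* (retinoic acid receptor responder 2), and its known receptors are the products of *CMKLR1*, *CCRL2* and *GPR1*. These genes were read in the blood of healthy dogs and of dogs with canine atopic dermatitis (cAD), an itching allergic skin disease, before and after allergen-specific immunotherapy (ASIT). Members were the non-control probes of the array whose gene name equalled 1 of the 4 symbols. This rule found 4 probes for 2 of the 4 genes, *RARRES2* and *GPR1*, among 43603 probes and 13460 gene symbols. *CCRL2* was added from 1 further probe, which carried only a provisional locus name, because its NCBI gene number and its description are those of *CCRL2*. *CMKLR1* was matched to no probe by name or description and was not analysed here. All 5 member probes passed the filter on low signal and were among the 38286 probes tested.

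The 22 arrays held 8 healthy dogs (ctrl), 7 cAD patients before ASIT (0) and the same 7 patients after ASIT for 6 months (6 months). The control dogs were blood donors of several breeds that received no therapy, and the patients were client-owned pets of various breeds that reacted in serological and intradermal allergy tests. ASIT consisted of subcutaneous injections of allergen extracts composed for each patient from its skin test, and no cAD dog was followed without ASIT, so the therapy and the passing of 6 months cannot be told apart. The sample labels give neither age nor breed of a dog. On each array the RNA of the dog was labelled with Cy5 and a common pool of RNA from other healthy dogs with Cy3, so a log2 ratio of 0 stands for the level of that pool. The material is whole blood by its labels, whereas the study's methods name peripheral blood nuclear cells. Transcripts of neutrophils (*S100A9*), T cells (*CD3E*) and red cells (*CA1*) were well above background on all 22 arrays. Probes well above background made up 83.6% to 92.2% of the Cy5 channel in ctrl, 53.3% to 87.5% before ASIT and 57.1% to 81.6% after ASIT. The ctrl arrays lay on 2 slides scanned on 1 day and the cAD arrays on 4 other slides scanned on 3 other days. A difference between cAD and ctrl therefore cannot be told apart from one between these slides. By the study's methods most patients were female and most control dogs male, and the breeds and age ranges of the groups differed. A difference between cAD and ctrl cannot be told apart from these either. P-values measure the spread between dogs on arrays run once.

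Chemerin is secreted as an inactive precursor, prochemerin, and gains activity when serine proteases of coagulation, fibrinolysis and neutrophil granules trim its carboxyl end. It is made mainly in liver, fat and epithelia including skin, where it also has antimicrobial activity. CMKLR1 is the receptor through which chemerin draws plasmacytoid dendritic cells, macrophages and natural killer cells into inflamed tissue, using an inhibitory G protein and arrestin. GPR1 binds chemerin with a weaker downstream signal, and CCRL2 binds it without classical signalling and holds it at the cell surface for neighbouring cells.

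The probe sequences are shown because each gene was read through 1 or 2 of these 60-base oligonucleotides, and the 2 probes of a gene sample different stretches of it. They are given 5′ to 3′ as deposited, with the position on CanFam3.1 that the files list, all on the minus strand. No other probe of the array has the same sequence. Their place in an exon or untranslated region was not analysed here.
RARRES2, brighter probe, chr16:14672316-14672375: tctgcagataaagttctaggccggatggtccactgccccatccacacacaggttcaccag
RARRES2, second probe, chr16:14673325-14673384: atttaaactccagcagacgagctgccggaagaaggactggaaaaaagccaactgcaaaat
CCRL2, chr20:42270998-42271057: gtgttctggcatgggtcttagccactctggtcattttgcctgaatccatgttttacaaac
GPR1, brighter probe, chr37:14726854-14726913: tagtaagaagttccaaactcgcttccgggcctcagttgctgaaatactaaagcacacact
GPR1, second probe, chr37:14727539-14727598: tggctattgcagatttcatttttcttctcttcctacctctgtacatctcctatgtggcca
The *RARRES2* probes are separated by 949 bases and have a GC content of 55% and 45%. The *CCRL2* probe has 45% GC, and the *GPR1* probes have 45% and 41.7%.

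Chemerin transcript was lower in most cAD patients before ASIT than in the control dogs with both of its probes, and none of these differences passed the threshold across the whole array. The *RARRES2* log2 ratios of the brighter probe ran from -0.34 to 0.99 in ctrl, with a median of 0.27. Before ASIT they ran from -1.13 to 0.27, with a median of -0.44. After 6 months they ran from -0.49 to 0.31, with a median of 0.04. Before ASIT, 5 of 7 patients lay under the lowest control dog, while dog 3 at -0.28 and dog 4 at 0.27 lay within the control range. In whole blood, fewer cells of a type and less RNA per cell cannot be told apart.

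In the comparison 0 vs. ctrl, *RARRES2* averaged -0.42 ± 0.41 (SD, n = 7) against 0.27 ± 0.42 in the control dogs (SD, n = 8). The difference of log2 ratios was -0.69 (SE 0.20, 95% CI -1.10 to -0.27), which is 1.61-fold lower. limma gave an adjusted p = 0.176 over all 38286 tested probes, and the 2-sided exact permutation test of this probe alone gave p = 0.00699, where 0.000155 is the smallest value that 8 against 7 dogs allow. Of all tested probes, 4.21% had a difference at least as low. Without any 1 dog the difference lay between -0.80 and -0.57, with exact permutation p from 0.00133 to 0.0127. Treating the slide as a random block gave -0.66 with a limma adjusted p = 0.496. The study selected *RARRES2* on these same arrays, so its direction in this comparison is not independent evidence. The study also measured *RARRES2* by real-time PCR, and those values were not analysed here.

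The second *RARRES2* probe gave the larger difference. The fold changes that the study printed for *RARRES2* equal those of this probe in each comparison. Before ASIT against the control dogs this probe was 2.0-fold lower, the brighter one 1.61-fold. The values the study reported are thus those of this probe, and its larger difference is not independent evidence. This probe is therefore no independent support for the brighter one. Its log2 ratios ran from -0.19 to 0.76 in ctrl with a median of 0.25, from -1.83 to 0.35 before ASIT with a median of -0.62, and from -0.77 to 0.35 after ASIT with a median of -0.23. Dog 4 before ASIT, at 0.35, was the only patient that did not lie under the lowest control dog, leaving 6 of 7 below it. Patients averaged -0.74 ± 0.66 (SD, n = 7) at that time, control dogs 0.26 ± 0.32 (SD, n = 8). The difference of log2 ratios was -1.0 (SE 0.23, 95% CI -1.48 to -0.52), or 2.0-fold lower. The limma adjusted p was 0.111 and the exact permutation p = 0.00218. Without dog 4 the difference was -1.18 and its limma adjusted p became 0.0443, which passes the threshold. After normexp background correction, which shrinks differences of dim spots, the difference was -0.43, beside -0.50 of the brighter probe. Of all tested probes, 1.27% had a difference at least as low.

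Both dye channels were read separately, since a ratio falls when either of them moves. For the brighter probe the processed Cy5 signal ran from 750 to 1510 in ctrl, from 358 to 1230 before ASIT and from 574 to 1080 after ASIT. Its processed Cy3 signal, which reads the same reference pool on every array, ran from 764 to 1170, from 781 to 1120 and from 747 to 1150. With the second probe the Cy5 signal ran from 465 to 929 in ctrl and from 107 to 581 before ASIT, while Cy3 ran from 472 to 712 and from 382 to 553. Both channels of both probes were well above background on all 22 arrays. With the Cy5 channel alone, scaled to the 75th percentile of each array, the difference 0 vs. ctrl was -0.52 for the brighter probe (limma adjusted p = 0.0476) and -1.16 for the second (limma adjusted p = 0.0032). On that scale the median of all tested probes itself lay at -0.44, so the brighter probe was hardly below the bulk of the array and the second probe was.

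**Figure D1:**
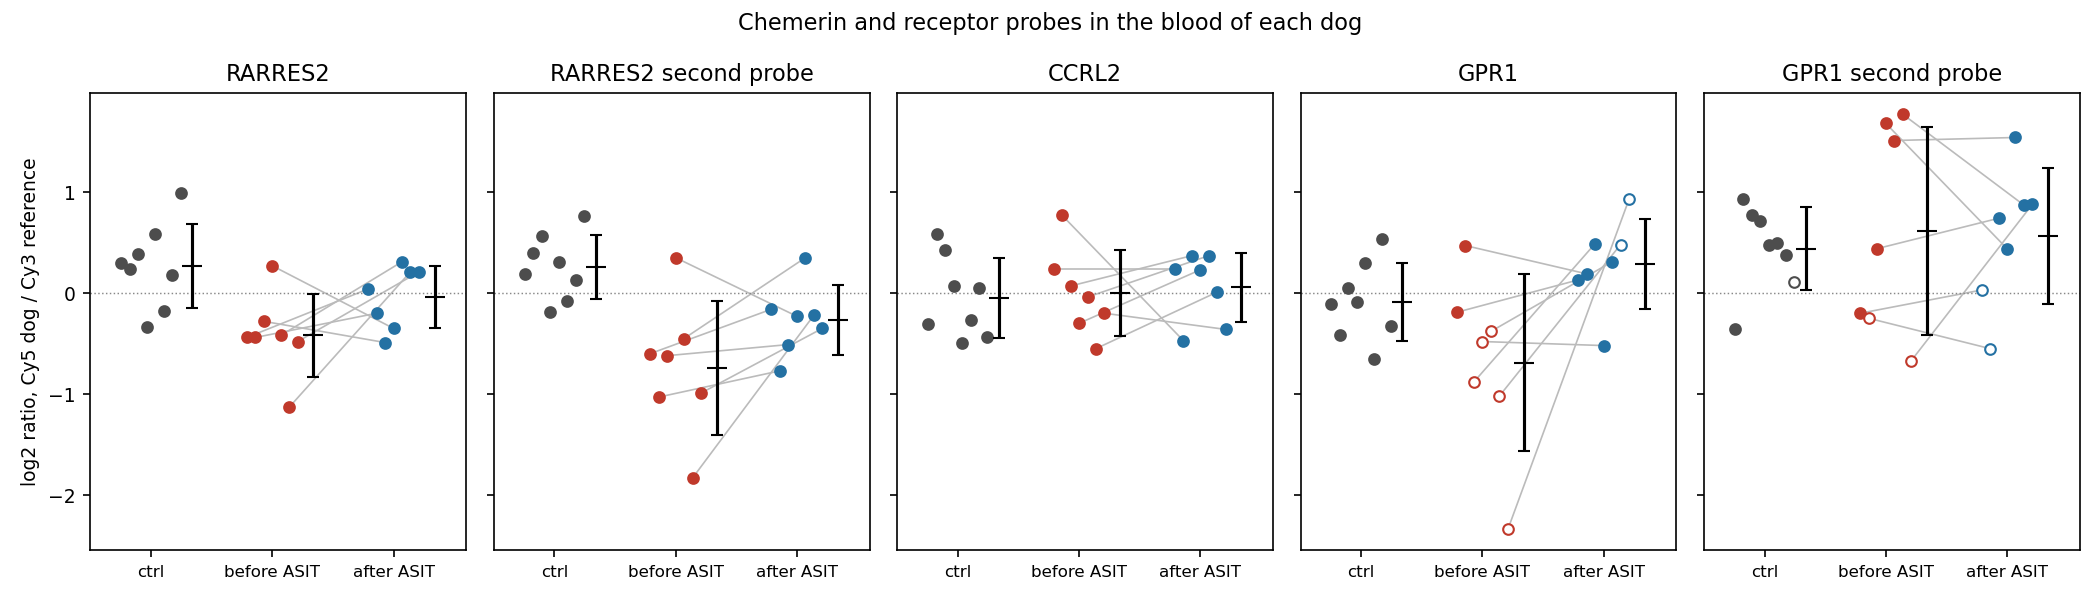
Log2 ratio of the dog's Cy5 signal to the Cy3 reference for the 5 member probes, one point per array in ctrl (n = 8), before ASIT and after ASIT (n = 7 each), with grey lines joining the arrays of the same patient. Bars give the mean ± SD, and open points are spots whose Cy5 signal was not well above background. The brighter *RARRES2* probe averaged 0.27, -0.42 and -0.04, *CCRL2* stayed near 0 in all groups, and many *GPR1* spots were dim.

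Within patients, chemerin before ASIT was compared with chemerin after 6 months, to see whether its level moved during therapy. The brighter probe averaged -0.42 at the start and -0.04 ± 0.31 at the end (SD, n = 7), and 5 of 7 patients were lower before therapy. The differences of log2 ratios, before minus after, were -0.48 in dog 1, -0.25 in dog 2, 0.21 in dog 3, 0.63 in dog 4, -0.72 in dog 5, -1.33 in dog 6 and -0.69 in dog 7. Dogs 3 and 4 thus went against the other 5 dogs. The mean difference was -0.38 (SE 0.21, 95% CI -0.81 to 0.05), with a limma adjusted p = 0.892 and an exact permutation p = 0.0734. These treat the arrays before and after ASIT as separate dogs. A paired exact permutation test gave p = 0.172, where 0.0156 is the smallest that 7 pairs allow. Dogs 4 and 6 moved this value most: it was -0.55 with exact permutation p = 0.013 without dog 4 and -0.22 with p = 0.232 without dog 6.

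The second probe was lower before ASIT in 6 of 7 patients, with dog 4 again the exception at 0.57 and dog 6 the lowest at -1.62. Its difference of -0.47 (SE 0.24, 95% CI -0.97 to 0.03) had a limma adjusted p = 0.864 and a paired exact permutation p = 0.109. After normexp it was -0.15, and that of the brighter probe -0.21. Without dog 4 it was -0.65 with exact permutation p = 0.0216, and without dog 6 it was -0.28 with p = 0.299, both unpaired. Most patients had their arrays on different slides at the 2 time points. On slide 3, which held both arrays of dogs 1 and 2, the brighter probe was at -0.44 on average before and -0.08 after ASIT, while on slide 4 it was at -0.01 before (dogs 3 and 4) and -0.49 after (dog 3 alone). With the slide as a fixed block the difference was -0.02 with the brighter and -0.06 with the second probe, in each case with a limma adjusted p = 1.00. The part of the slide in the unblocked difference was not tested.

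After 6 months of ASIT, *RARRES2* in patients lay between the values before therapy and those of the control dogs with both probes. The difference 6 months vs. ctrl amounted to -0.31 (SE 0.20, 95% CI -0.73 to 0.11) with the brighter probe, with a limma adjusted p = 0.707 and exact permutation p = 0.13. Without control dog 4 it was -0.40 with exact permutation p = 0.0466. The second probe gave -0.53 (SE 0.23, 95% CI -1.01 to -0.04), with a limma adjusted p = 0.681 and exact permutation p = 0.0103, and 5 of 7 patients were under the lowest control dog. After normexp the second probe had -0.28, and the brighter -0.29. In Cy5 alone the second probe had -0.64 (limma adjusted p = 0.0544) and the brighter -0.10, on either side of the median of -0.37 of all tested probes. The 3 comparisons share their arrays and are not independent of each other.

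**Figure D2:**
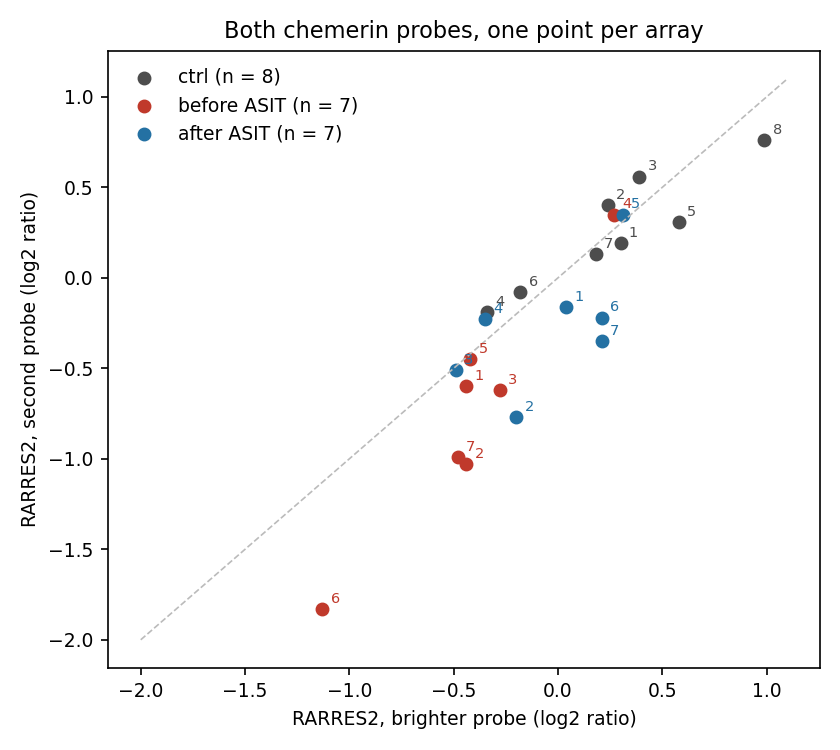
Log2 ratio of the second *RARRES2* probe against that of the brighter probe, one point per array, numbered by dog within ctrl (n = 8), before ASIT and after ASIT (n = 7 each), with a dashed line where both are equal. Dog 6 before ASIT is the lowest array on both axes (-1.13 and -1.83), and control dog 8 the highest (0.99 and 0.76).

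Both *RARRES2* probes ordered the dogs in a like way within ctrl and before ASIT. Pearson's r was 0.92 in ctrl (Spearman's rho = 0.88), with exact permutation p = 0.0025 and 0.00724, or 0.0225 and 0.0652 after Benjamini-Hochberg adjustment over the 9 relations between probes of the same locus. Before ASIT r was 0.96 (rho = 0.86), with exact permutation p = 0.0121 and 0.0238, or 0.0544 and 0.107 adjusted. After ASIT r was 0.60 (rho = 0.61), with exact permutation p = 0.149 and 0.167, or 0.447 and 0.376 adjusted. Without the 2 dogs farthest from the median of the brighter probe, r was 0.74, 0.46 and 0.83, so before ASIT the relation rested on dogs 4 and 6.

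A further probe, TC63339 at chr16:14671546-14671605, lies 710 bases beyond the brighter *RARRES2* probe and is described only by its similarity to the orangutan RARRES2 precursor. It is no member, and it is given here because it lies beside them, a choice made after its values were seen. Its log2 ratios ran from -0.82 to 1.29 in ctrl, from -1.32 to 1.66 before ASIT and from -1.13 to 1.82 after ASIT, and the probe was bright in both dyes on every array. Its difference 0 vs. ctrl was 0.33 (SE 0.45, 95% CI -0.61 to 1.27), with a limma adjusted p = 0.829. Its correlation with the brighter *RARRES2* probe was 0.10 in ctrl, 0.17 before ASIT and 0.33 after ASIT (exact permutation p = 0.816, 0.737 and 0.509, and 0.862 adjusted over the same 9 relations for each). Before minus after ASIT, TC63339 had -0.41 on average, with the same sign as the brighter *RARRES2* probe in 7 of 7 dogs (limma adjusted p = 0.934, paired exact permutation p = 0.297). The transcript it reads was not identified here.

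*CCRL2*, the receptor that binds chemerin without classical signalling, differed by 0.10 or less in log2 ratio between the means of any 2 groups. Its log2 ratios ran from -0.49 to 0.58 in ctrl with a median of -0.11, from -0.55 to 0.77 before ASIT with a median of -0.04, and from -0.47 to 0.37 after ASIT with a median of 0.23. The ranges overlapped almost wholly. Control dogs averaged -0.05 ± 0.40 (SD, n = 8), and patients 0.00 ± 0.43 at the start and 0.05 ± 0.35 at the end (SD, n = 7 each). The difference was 0.05 (95% CI -0.38 to 0.47) for 0 vs. ctrl, 0.10 (95% CI -0.32 to 0.53) for 6 months vs. ctrl and -0.05 (95% CI -0.49 to 0.38) for 0 vs. 6 months, with limma adjusted p = 0.957, 0.926 and 0.972. These intervals do not exclude differences as large as the -0.31 of the brighter *RARRES2* probe in 6 months vs. ctrl, so a like level was not shown. With the Cy5 channel alone the difference was 0.44 in 0 vs. ctrl (limma adjusted p = 0.0904) and 0.54 in 6 months vs. ctrl (limma adjusted p = 0.041), where the medians of all tested probes lay at -0.44 and -0.37. In single patients the difference before minus after ran from -0.56 in dog 6 to 1.25 in dog 2, and 4 of 7 patients were lower before ASIT. The probe was well above background in both channels on all 22 arrays.

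*GPR1*, the second receptor bound by chemerin, was close to the background of the array, and its 2 probes differed in the order of the dogs. Cy5 of the brighter probe was well above background in 8 of 8 ctrl arrays, 2 of 7 arrays before ASIT and 5 of 7 after ASIT. For the second probe these counts were 7 of 8, 5 of 7 and 5 of 7. Its reference channel was well above background in 2 of 8, 1 of 7 and 0 of 7 arrays. The processed Cy5 signal of the brighter probe ran from 52.6 to 130 in ctrl, from 13.2 to 67.1 before ASIT and from 28.2 to 103 after ASIT, and its Cy3 signal of the common reference from 68.4 to 140, from 24.8 to 96.2 and from 16.6 to 90.6. Both channels were thus dimmer on the cAD arrays, as was the share of probes above background given above, and the part of this in the ratio was not tested.

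With the brighter probe the *GPR1* log2 ratios ran from -0.65 to 0.54 in ctrl with a median of -0.10, from -2.34 to 0.47 before ASIT with a median of -0.48, and from -0.52 to 0.93 after ASIT with a median of 0.31. The difference 0 vs. 6 months was -0.98 (SE 0.30, 95% CI -1.61 to -0.35), with a limma adjusted p = 0.434, an exact permutation p = 0.0146 and a paired exact permutation p = 0.0781. Dog 7 before ASIT, at -2.34 with Cy5 not well above background, was the lowest of all arrays. Without dog 7 the difference 0 vs. 6 months was -0.59, and that of 0 vs. ctrl was -0.32. After normexp background correction the difference 0 vs. 6 months was -0.11, and with the slide as a fixed block it was -0.48. Within slide 3 it was -0.02 and within slide 4 it was -1.17, and with the spots left out that were dim in both channels it was -0.86. The difference 0 vs. ctrl was -0.60 (SE 0.29, 95% CI -1.21 to 0.01), with a limma adjusted p = 0.436, and 6 months vs. ctrl was 0.38 (SE 0.29, 95% CI -0.23 to 0.99), with a limma adjusted p = 0.759. After normexp these were -0.04 and 0.06. With the Cy5 channel alone they were -1.59 (limma adjusted p = 0.00308) and -0.83 (limma adjusted p = 0.0366), which passes the threshold in both and turns the direction of the latter.

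The second *GPR1* probe averaged 0.44 ± 0.41 in the control dogs (SD, n = 8), and 0.61 ± 1.03 and 0.56 ± 0.67 in the patients at the start and the end (SD, n = 7 each). Its difference was 0.17 (95% CI -0.56 to 0.91) for 0 vs. ctrl, 0.12 (95% CI -0.61 to 0.86) for 6 months vs. ctrl and 0.05 (95% CI -0.71 to 0.81) for 0 vs. 6 months, with limma adjusted p = 0.894, 0.953 and 0.985. The 2 *GPR1* probes correlated by -0.08 in ctrl, 0.16 before ASIT and 0.34 after ASIT (exact permutation p = 0.862, 0.76 and 0.454, or 0.862, 0.862 and 0.862 adjusted). Before ASIT, dog 7 was the lowest patient with both probes, at -2.34 and -0.67, while dog 6 was next lowest with the brighter probe at -1.02 and highest with the second at 1.77. Before minus after ASIT, the 2 probes had the same sign in 6 of 7 dogs, all but dog 6.

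**Figure D3:**
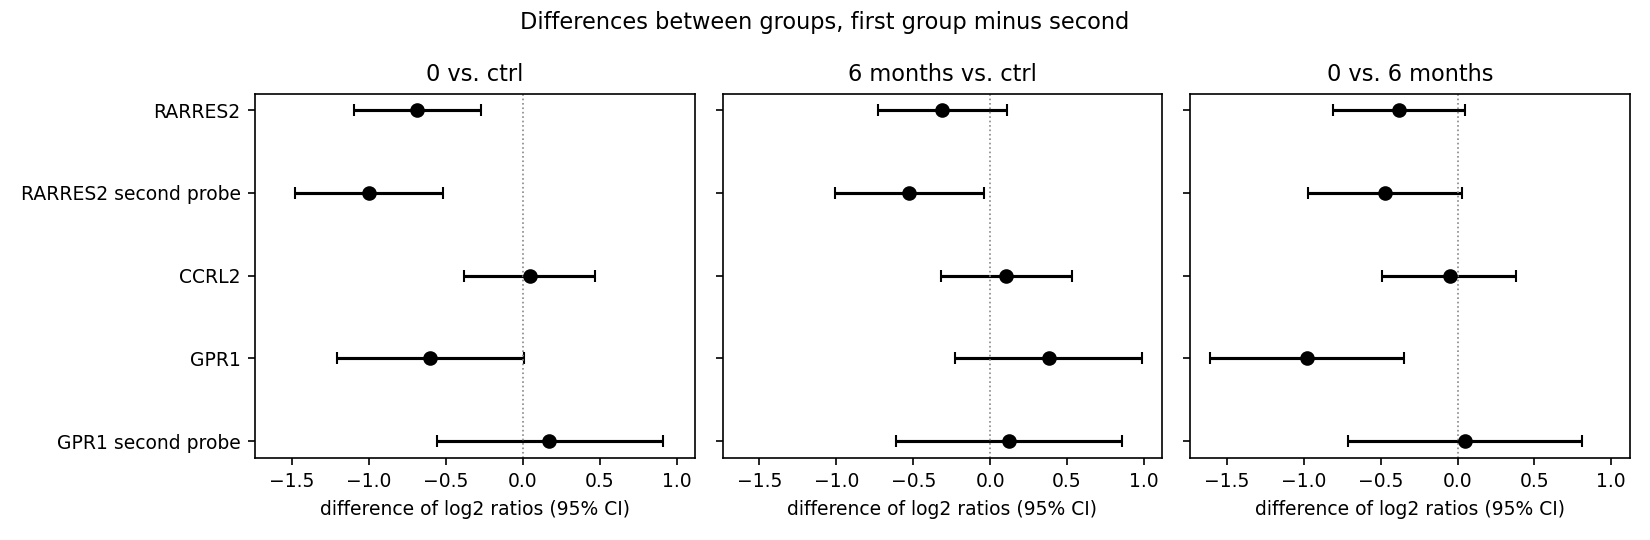
Difference of mean log2 ratios with its 95% confidence interval from limma for the 5 member probes in the 3 comparisons, first group minus second. Both *RARRES2* intervals lie under 0 in 0 vs. ctrl (-1.10 to -0.27 and -1.48 to -0.52), all *CCRL2* intervals span 0, and the brighter *GPR1* probe lies under 0 in 0 vs. 6 months (-1.61 to -0.35) where its second probe spans it.

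None of the 5 member probes passed an adjusted p of 0.05 in limma in any comparison. Over all tested probes this held for 0.0418% in 0 vs. ctrl, for 0% in 6 months vs. ctrl and for 0% in 0 vs. 6 months. In the latter comparisons 2756 and 2282 probes had an unadjusted p under 0.05. A one-way test like that of the study, run here on the probes that passed the filter on low signal, gave 0 calls. The study applied other filters and reported called transcripts in each comparison. At an unadjusted p under 0.05, 2 of 5 member probes were lower in 0 vs. ctrl, both of *RARRES2*, where 7.93% of all probes were lower and 3.81% higher. In 6 months vs. ctrl it was 1 of 5, the second *RARRES2* probe, where 3.11% of all probes were lower and 4.09% higher. In 0 vs. 6 months it was 1 of 5, the brighter *GPR1* probe, where 3.81% of all probes were lower and 2.15% higher. The study chose *RARRES2* on the first of these comparisons, and nothing is read from that count.

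The ligand was then set beside each receptor on the same array, so that a shift common to both cancels. *RARRES2* minus *CCRL2* ran from -0.41 to 1.42 in ctrl, from -1.22 to 0.58 before ASIT and from -0.86 to 0.57 after ASIT. Control dogs averaged 0.32 ± 0.66 (SD, n = 8) and untreated patients -0.42 ± 0.54 (SD, n = 7). The difference 0 vs. ctrl was -0.73, with exact permutation p = 0.037. This call did not hold without any 1 of 8 dogs, namely patients 1, 2, 3, 5 and 6 and control dogs 1, 5 and 8, where the exact permutation p rose to at most 0.0842. It was -0.41 in 6 months vs. ctrl, with exact permutation p = 0.205 (-0.25 without control dog 8), and -0.32 in 0 vs. 6 months (exact permutation p = 0.27, paired 0.391). After Benjamini-Hochberg adjustment over the 6 ligand and receptor differences computed, the exact permutation p of 0 vs. ctrl was 0.111 and those of the other 2 comparisons were 0.307 and 0.324. The study chose *RARRES2* for its low level in 0 vs. ctrl on these arrays, where *CCRL2* differed by 0.05. The difference of ligand and receptor in 0 vs. ctrl is therefore no independent evidence, with *GPR1* as with *CCRL2*.

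*RARRES2* minus *GPR1* averaged 0.36 ± 0.52 in the control dogs (SD, n = 8), and 0.27 ± 0.89 and -0.33 ± 0.41 in the patients at the start and the end (SD, n = 7 each). The difference was -0.09 for 0 vs. ctrl (exact permutation p = 0.815), -0.69 for 6 months vs. ctrl (p = 0.0135, exact permutation) and 0.60 for 0 vs. 6 months (exact permutation p = 0.135, paired 0.234), and adjusted over the same 6 differences these were 0.815, 0.0811 and 0.269. Read in Cy5 alone, 6 months vs. ctrl turned to 0.72 (exact permutation p = 0.0375) and 0 vs. ctrl to 1.07 (p = 0.00917), whereas 0 vs. ctrl after normexp was -0.46 (p = 0.0168). The difference 0 vs. 6 months kept its direction in Cy5 alone, at 0.35. Without dog 7 the difference 0 vs. 6 months was 0.27 and that of 0 vs. ctrl -0.35, and after normexp 0 vs. 6 months was -0.11.

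**Figure D4:**
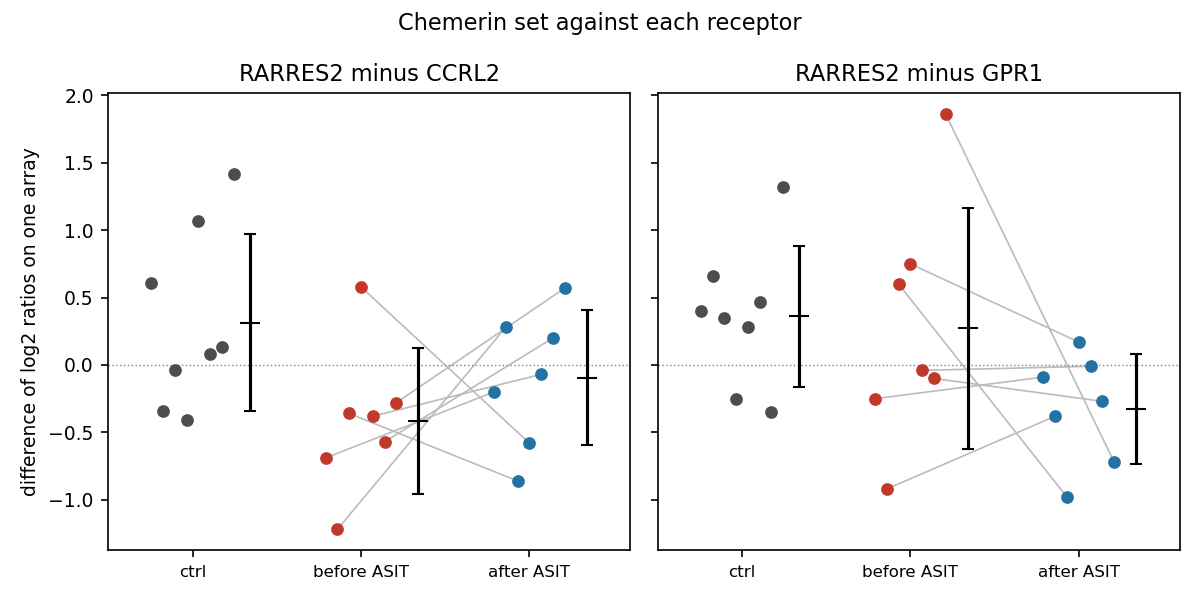
Log2 ratio of *RARRES2* minus that of *CCRL2* (left) and of *GPR1* (right) on each array, brighter probes, in ctrl (n = 8), before ASIT and after ASIT (n = 7 each), with lines joining the arrays of a patient and bars for the mean ± SD. *RARRES2* minus *CCRL2* averaged 0.32 in ctrl and -0.42 before ASIT, and the groups overlap in both panels.

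Across dogs of the same group, no correlation of chemerin with either receptor passed the exact permutation test. Pearson's r between *RARRES2* and *CCRL2* was -0.31 in ctrl, 0.17 before ASIT and -0.16 after ASIT, with exact permutation p = 0.452, 0.738 and 0.699 and Spearman's rho of -0.50, 0.14 and 0.04 (p = 0.216, 0.783 and 0.963). Between *RARRES2* and *GPR1* r was 0.16, 0.19 and 0.46, with exact permutation p = 0.713, 0.654 and 0.316 and rho of 0.14, 0.29 and 0.29 (p = 0.752, 0.556 and 0.556). After normexp background correction r turned to -0.49 before ASIT and -0.76 after ASIT (exact permutation p = 0.294 and 0.0512). Adjusted over these 6 relations, each p of r was 0.738 and those of rho were 0.94 or 0.963. Without the 2 dogs farthest from the median of *RARRES2*, r ranged from -0.06 (before ASIT) to 0.57 (after ASIT) for *CCRL2* and from 0.11 (before ASIT) to 0.63 (ctrl) for *GPR1*.

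The genes whose probes deviated from their group means most like the brighter *RARRES2* probe were taken from 12352 named probes that both dyes read well above background on every array. Likeness was measured as Pearson's r of these deviations over the 22 arrays, as a description without a test, since the points share arrays and 7 dogs enter with 2 arrays each. The highest was *DERL3*, a membrane protein of endoplasmic reticulum-associated degradation, with r = 0.79. Its log2 difference 0 vs. ctrl was -0.74 (limma adjusted p = 0.178), beside -0.69 of *RARRES2*. *LRTOMT*, which encodes a catechol methyltransferase in its second reading frame, followed with r = 0.72, then the mitotic spindle gene *SPAG5* with 0.69, the aldehyde dehydrogenase *ALDH7A1* with 0.68 and the amino acid transporter *SLC38A3* with 0.66. The second *RARRES2* probe had r = 0.83 with the brighter one, which no named probe reached. With the second *RARRES2* probe itself, *DERL3* had r = 0.86 and *SPAG5* 0.82. The differences 0 vs. ctrl of those 4 genes were 0.02, -0.23, 0.12 and 0.28 (limma adjusted p = 0.966, 0.728, 0.804 and 0.721).

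Genes around chemerin were then described by lists. Over all tested probes, 3.81% were higher and 7.93% lower at an unadjusted p under 0.05 in 0 vs. ctrl. These shares were 4.09% and 3.11% in 6 months vs. ctrl, and 2.15% and 3.81% in 0 vs. 6 months. The lists are short, and nothing is read from their counts at that level. Of 18 genes for enzymes that activate or trim chemerin, 11 were tested, and 0 of 11 reached even an unadjusted p under 0.05 in 0 vs. ctrl, with a median difference of -0.12 against -0.02 over all tested probes. The largest positive difference was that of *PLAU* (urokinase) with 0.52 (SE 0.33, limma adjusted p = 0.575), and the largest negative that of *CPN1*, a carboxypeptidase subunit, with -0.80 (SE 0.55, limma adjusted p = 0.614), which was above background on only 7 arrays. After normexp background correction the median was 0.02. In the patients, 1 of 11 was lower before than after ASIT (0 vs. 6 months) at an unadjusted p under 0.05, *PLG* (plasminogen) with -0.71 (limma adjusted p = 0.729, above background on 9 arrays), and the largest positive difference was 0.25 for *F7* (limma adjusted p = 0.934).

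*RARRES2* takes its name from its response to retinoids, and of 29 genes of the retinoid pathway 22 were tested. In 0 vs. ctrl 0 of 22 had an unadjusted p under 0.05, 11 were higher and 11 lower, and the median was -0.03. *NR1H4*, a nuclear receptor for bile acids, had 0.53 (limma adjusted p = 0.633) and *ALDH1A2*, which makes retinoic acid, had -0.63 (limma adjusted p = 0.475). Before against after ASIT, 1 of 22 was lower at an unadjusted p under 0.05, *DHRS3* (a retinaldehyde reductase) with -0.48, while the extremes were *CRABP2* with 0.59 and *NR1H4* with -0.52 (limma adjusted p = 0.923 and 0.934). In 6 months vs. ctrl 2 of 22 were higher (*RXRG* 0.90 and *NR1H4* 1.05) and 1 lower (*RARRES3* -0.60) at an unadjusted p under 0.05, with limma adjusted p = 0.681, 0.665 and 0.68. Of all probes 4.09% were higher and 3.11% lower at that level. *DHRS3*, *RXRG* and *RARRES3* are named here after their values were seen.

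Of 25 genes for G proteins, arrestins and kinases through which a chemerin receptor signals, 21 were tested, with 0 of 21 at an unadjusted p under 0.05 in 0 vs. ctrl and in 0 vs. 6 months and a median of -0.04 in each. Their extremes were *GRK5*, a receptor kinase, with 0.38 and *GNG2*, a G protein subunit, with -0.31 in 0 vs. ctrl (limma adjusted p = 0.526 and 0.517). In 0 vs. 6 months they were *GNAI1* with 0.32 and *MAPK3* with -0.19 (limma adjusted p = 0.934 for each). In 6 months vs. ctrl 1 of 21 was lower at an unadjusted p under 0.05, *GNG2* with -0.40 (limma adjusted p = 0.681). Among 28 related chemoattractant receptors, 15 were tested and 1 of 15 was higher in 0 vs. ctrl at an unadjusted p under 0.05, *CXCR4*, the receptor of CXCL12, with 0.75 (SE 0.22, limma adjusted p = 0.176). *GPR33* was lower in 0 vs. 6 months with -0.66 (unadjusted p = 0.0101, limma adjusted p = 0.572, above background on 12 arrays), and the atypical receptor *ACKR4* had 0.82 (limma adjusted p = 0.894, above background on 10 arrays).

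Chemerin shares the cystatin fold, and of 10 genes with related proteins 6 were tested. Here 4 of 6 were higher and 2 lower in 0 vs. ctrl, with a median of 0.55 (0.03 after normexp background correction) and 1 of 6 at an unadjusted p under 0.05. That was *KNG1*, which encodes the kinin precursor kininogen, with 1.07 (SE 0.34, limma adjusted p = 0.2), above background on 17 arrays in Cy5 and 9 in Cy3. *CST7* was lowest with -0.22 (limma adjusted p = 0.78). *CSTA* had 0.57 and *CAMP*, the cathelicidin precursor, -0.32 in 0 vs. 6 months (limma adjusted p = 0.934 for each). No gene of these 5 lists passed an adjusted p of 0.05 in any comparison.

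**Figure D5:**
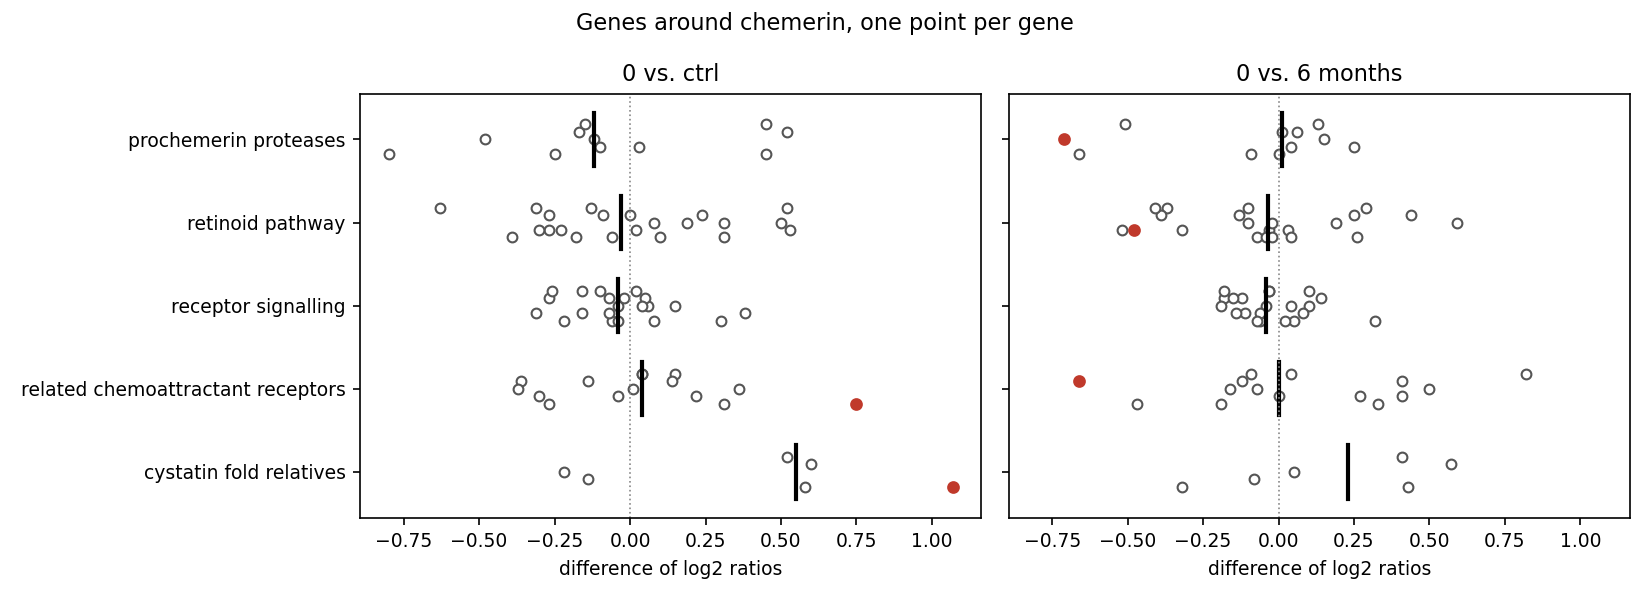
Difference of mean log2 ratios in 0 vs. ctrl (left) and 0 vs. 6 months (right) for the tested genes of the 5 lists, one point per gene read from its brightest probe, with filled points for an unadjusted limma p under 0.05 and a vertical bar at the median of the list. *CXCR4* (0.75) and *KNG1* (1.07) are the filled points on the left, and *PLG* (-0.71), *DHRS3* (-0.48) and *GPR33* (-0.66) on the right.

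The lists of blood cell markers were read beside chemerin. Their counts at an unadjusted p under 0.05 stand against the shares of all probes given above, and nothing is read from them. Monocyte markers had a median difference of -0.10 in 0 vs. ctrl, with 8 of 10 lower. This split turned with the scaling, to 5 of 10 lower after normexp background correction and to 3 of 10 lower with the Cy5 channel alone (median 0.07). The median was 0.07 for plasmacytoid dendritic cell markers, with 1 of 5 lower at an unadjusted p under 0.05 (*TCF4*, -0.45). The medians were 0.04 for natural killer cells, 0.00 for neutrophils, 0.05 for T cells, 0.06 for B cells, 0.30 for eosinophils and basophils and 0.33 for red cells, with 0 genes of these lists at an unadjusted p under 0.05 in 0 vs. ctrl. In 6 months vs. ctrl the eosinophil and basophil list had a median of 0.53, and 0.20 after normexp background correction. Of it 2 of 7 were higher at an unadjusted p under 0.05, where 4.09% of all probes were, namely *IL5RA* with 0.52 and *CPA3* with 1.92 (limma adjusted p = 0.681 for each). The other marker genes at that level in 6 months vs. ctrl were *CD68* of monocytes with 0.78, *TCF4* with -0.43 and *ALB* with -0.93. These genes are named after their values were seen. Platelet markers lay lower in 7 of 7 genes, with a median of -0.53 and 1 of 7 at an unadjusted p under 0.05 (*PPBP*, -0.65). After normexp 7 of 7 were lower, with a median of -0.52. When Cy5 was read alone, 5 of 7 were lower and the median was -0.19, above the median of all tested probes by 0.25. In 0 vs. 6 months, too, 7 of 7 platelet markers were lower, with a median of -0.36, beside -0.38 and -0.47 of the *RARRES2* probes. That median was -0.31 after normexp and -0.24 with the Cy5 channel alone, again with 7 of 7 lower in each. In 6 months vs. ctrl the platelet median was -0.12. No gene of the other cell lists had an unadjusted p under 0.05 before against after ASIT. Their median in 0 vs. 6 months was -0.14 for monocytes (8 of 10 lower), 0.29 for natural killer cells (6 of 8 higher), 0.26 for T cells (6 of 8 higher), 0.29 for B cells (5 of 6 higher), -0.24 for eosinophils and basophils (6 of 7 lower) and -0.22 for red cells (5 of 7 lower). After normexp it was -0.07 for monocytes, 0.09 for natural killer cells, 0.21 for T cells, 0.10 for B cells, -0.02 for eosinophils and basophils and 0.00 for red cells. The mean log2 ratio of the platelet list ran from -0.92 to 0.73 in ctrl, from -1.07 to 0.33 before ASIT and from -0.84 to 0.68 after ASIT, and its summed Cy5 signal from 53900 to 154000, from 52800 to 128000 and from 60800 to 150000. In each group every tested platelet marker was well above background on some array. Markers of fat, liver, skin and fibroblasts, which make chemerin in other tissues, lay lower in 9 of 12 genes with a median of -0.13, led by *ALB* with -0.73 (unadjusted p = 0.00662, limma adjusted p = 0.218). *ALB* was lower still after ASIT, at -0.93 in 6 months vs. ctrl (unadjusted p = 0.00092, limma adjusted p = 0.602), where the *RARRES2* probes had -0.31 and -0.53. In Cy5 alone 11 of 12 of them were lower in 0 vs. ctrl, with a median of -0.97, which lay below that of all tested probes (a difference of -0.53), and after normexp the median was -0.04. In 0 vs. 6 months their median was -0.09, and -0.53 with the Cy5 channel alone. The summed Cy5 signal of that list ran from 6670 to 14400 in ctrl, from 3260 to 14400 before ASIT and from 6530 to 14200 after ASIT. No gene of the marker lists passed an adjusted p of 0.05 in any comparison. The part of these lists in the lower *RARRES2* ratios was not tested.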

How the data were processed

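Blood RNA of 8 healthy dogs (ctrl) and of 7 cAD patients before and after ASIT was hybridised to 22 two-colour Agilent canine arrays, with dog RNA in Cy5 and a common reference in Cy3. Feature extraction was done by the authors with Agilent Feature Extraction, given as version 10.7.3.1 per the labels and 10.10.1.1 per the file headers. The deposited log ratio (log10 of Cy5 over Cy3, after the scanner software's background subtraction and dye normalization) was multiplied to the log2 scale. The deposited fluorescence intensity of each channel (processed, mean and background signals) and the flags were used for levels and alternatives. The deposited value table, read as log10 ratios and turned to log2 in the same way, correlated with the scanner ratios by r = 1 on the 14 cAD arrays and by 0.711 to 0.844 on the ctrl arrays. Its medians as deposited ran from -0.000208 to 0.0067 on the ctrl arrays and from 0 to 0.00729 on the cAD arrays. Its scale on the ctrl arrays is unknown. The genome build of the probe positions is that of the files.

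Control spots and 208 outlier-flagged spots were left out, and spots of a probe were averaged. Of 43603 probes, those whose Cy5 signal exceeded background clearly (by the scanner software's flag) on 7 or more arrays, 38286 in all, entered the test with limma 3.58.1 in R 4.3.3, with all 3 groups in 1 fit and Benjamini-Hochberg adjustment over all tested probes. A probe was called at an adjusted p under 0.05. Exact permutation tests of single probes were 2-sided (Python 3.11.15, scipy 1.17.1). In 0 vs. 6 months the limma fit of all groups and the exact permutation tests ignore the pairing, except where a test is called paired. The fit was tested on simulated data. A gene was read from its brightest probe, with its other probes given separately. The genes named were the members, the 5 genes most like *RARRES2*, and the largest positive and negative difference of each list in 0 vs. ctrl and 0 vs. 6 months. One of these is not reported here. The members and lists were chosen with earlier results of these data known. Before and after arrays were paired by patient, as the source names in the labels give, whereas the titles of all samples after therapy name the same patient. Deviations from the group means correlated within a patient by -0.208 to 0.649. In 4 of 7 patients (dogs 3, 5, 6 and 7) the array before ASIT correlated more with another dog's array after ASIT (0.419 to 0.756) than with its own, so the pairing rests on the source names. The number of arrays limits the precision.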

Additional observations from a re-analysis of the deposited data

How the results depend on the processing

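*RARRES2* was lower in 0 vs. ctrl in all alternatives (-0.84 to -0.50). With the Cy5 channel alone it passed the threshold (-0.52, adjusted p = 0.0476), but there the median of all tested probes also lay at -0.44 (-0.37 in 6 months vs. ctrl, -0.08 in 0 vs. 6 months). Without single dogs it ran from -0.80 to -0.57, from -0.40 to -0.21 in 6 months vs. ctrl and from -0.55 to -0.22 in 0 vs. 6 months, where slide 4 alone gave 0.49. The second *RARRES2* probe gave 0.37 there. Dog as a replicate block left the difference 0 vs. 6 months at -0.38 (limma adjusted p = 0.803), at -0.47 for the second probe, and the count of called transcripts at 0, and it changed no call. Slide and scan day shift with the groups and were not separable from them in 0 vs. ctrl. No alternative was run for *CMKLR1*, to which no probe was matched.

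*CCRL2* in 0 vs. ctrl turned to -0.02 with the deposited value table and ran from -0.08 to 0.14 without single dogs. With the Cy5 channel alone it was 0.54 in 6 months vs. ctrl (limma adjusted p = 0.041). In 0 vs. 6 months it was 0.18 with the slide as a fixed block, 0.08 with the scan day, 0.32 in dogs 1 to 3, 0.62 within slide 3, -0.48 within slide 4 and -0.27 to 0.03 without single dogs. *GPR1* with the Cy5 channel alone was -1.59 in 0 vs. ctrl (limma adjusted p = 0.00308) and -0.83 in 6 months vs. ctrl (limma adjusted p = 0.0366), and in 0 vs. 6 months it was -0.02 within slide 3 and -1.17 within slide 4. The second *GPR1* probe was -0.64 in 0 vs. ctrl and -0.75 in 0 vs. 6 months with the Cy5 channel alone, -0.04 in 6 months vs. ctrl after normexp, and in 0 vs. 6 months -0.08 in dogs 1 to 3 and -0.07 without dim spots. Without single dogs it ran from -0.02 to 0.39, from -0.04 to 0.31 and from -0.15 to 0.32.

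*RARRES2* minus *CCRL2* in 0 vs. ctrl was -0.67 with the deposited value table (exact permutation p = 0.0657) and -0.90 to -0.58 without single dogs. It was -0.64 in 6 months vs. ctrl with the Cy5 channel alone (exact permutation p = 0.0421) and -0.57 to -0.13 in 0 vs. 6 months without single dogs. The lowest unpaired exact permutation p of the latter was 0.0455. *RARRES2* minus *GPR1* in 0 vs. ctrl was -0.46 after normexp (exact permutation p = 0.0168), 1.07 with the Cy5 channel alone (exact permutation p = 0.00917) and -0.35 to 0.11 without single dogs. It was 0.72 in 6 months vs. ctrl with the Cy5 channel alone and -0.11 in 0 vs. 6 months after normexp. The correlation of *RARRES2* and *GPR1* after normexp was -0.49 before ASIT and -0.76 after ASIT.

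The count of called transcripts in 0 vs. ctrl was 16 (11 higher, 68.8%). It was 0 after normexp, when every array had to read a probe above background in both dyes, and with slide or scan day as a random block. With a one-way test like that of the study, on the probes filtered here, it was also 0. It was 9 with the deposited value table (44.4% higher), 29 without dim spots (82.8% higher) and 17286 with the Cy5 channel alone (4.52% higher). Without single dogs it ran from 0 to 380, the highest without patient 1, followed by 129 without patient 2 and 47 without patient 3. It was 0 without patient 5, 10 without patient 7, 0 without control dogs 1, 2, 4, 5 or 8, and 3 to 6 without control dogs 3, 6 or 7. In 6 months vs. ctrl it was 15712 with the Cy5 channel alone, and from 0 to 6 without single dogs (patient 1 left out, 6; patient 2, 1). In 0 vs. 6 months it was 1 without the filter on dim probes and from 0 to 60 without single dogs (patient 1 left out, 46; patient 2, 5; patient 3, 60). The causes were not tested.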
